A study of Mus musculus with 12 samples.

Results

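The genes described here encode the enzymes that build, sulfate and trim glycosaminoglycans, the long sugar chains of cartilage matrix and cell surfaces. They were taken by symbol from the raw count table: the Has, Hyal, Chst, Xylt, Chsy, Ext, Extl, Ndst, Hs3st, Hs6st, Sulf, Papss and Csgalnact families by their numbered names, with Hs2st1, Chpf, Chpf2, Ugdh, B4galt7, B3galt6, B3gat3, Dse, Dsel and Ust added singly. The rule found 62 of 23284 genes and used no measured value, though the members were chosen with earlier results of these data known. Polyadenylated RNA was sequenced from mandibular condylar fibrocartilage, the fibrous cartilage on the moving head of the jaw joint, taken whole with every cell type in it. All animals were female C57BL/6 mice that had lost their ovaries at 16 weeks of age, carried a pellet for 1 week and were sampled at 17 weeks. The groups were estrogen receptor alpha knockout (ERalphaKO) with estradiol (E2, n = 3), ERalphaKO with placebo (n = 4), wild type (WT) with E2 (n = 3) and WT with placebo (n = 2). The E2 pellet held 0.01 mg and released it over 60 days. The allele of the knockout is not given in the sources used here. Nor do the labels state that each library came from its own animal, and p-values then measure only the spread between these libraries.

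Glycosaminoglycans are made in the Golgi on proteoglycan core proteins, except hyaluronan, which synthases in the cell membrane spin out without a core and without sulfate. A short sugar linker is first attached to the core, and chondroitin and dermatan sulfate or heparan sulfate is then polymerized on it, while keratan sulfate grows on ordinary protein glycans. Sulfotransferases place sulfate from the donor PAPS at defined positions, and in cartilage this charge holds the water that lets the tissue bear load, while heparan sulfate patterns govern the binding of growth factors.

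The 12 libraries held 9696434 to 28750636 counts, and the 62 genes took 0.275 to 0.321% of them, least in ERalphaKO placebo replicate 3. Levels below are CPM, counts scaled to the effective library size. Esr1, the gene for estrogen receptor alpha, lay between 3.64 and 5.75 CPM in the ERalphaKO libraries and between 8.53 and 17.5 CPM in the WT libraries, without overlap. Of the tissue's defining markers, Col2a1 spanned 1150 to 14800 CPM, Acan 621 to 1970, Prg4 65.9 to 391 and Col1a1 27000 to 43700. The tendon marker Tnmd was near absent at 0.511 to 5.04 CPM. Other tissue was present in unequal amounts. Summed skeletal muscle markers ranged from 9.07 to 50.2 CPM in ERalphaKO E2, 14.2 to 5750 in ERalphaKO placebo, 216 to 1090 in WT E2 and 8.68 to 2380 in WT placebo. Summed granulocyte markers were highest in ERalphaKO placebo replicate 3 (19200 CPM) and ERalphaKO E2 replicate 1 (9460 CPM) and stayed at or below 4410 CPM in the other libraries. In RNA from whole tissue, fewer cells of a type and less RNA per cell cannot be told apart.

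Transcripts of most of the pathway were present. Of the 62 genes, 53 passed the filter on low counts and were tested. Chst4, Chst9, Hyal4, Hyal5, Hyal6 and Ndst4 had 0 counts in every library. Hs3st2 had 1 count and Hs6st3 had 4 counts over all libraries. Hs6st2 reached 53 counts in all and at most 11 in a library. Among the tested genes, the level per kilobase of exon spanned from 0.071 CPM per kb for Ndst3 to 59.8 CPM per kb for Chst12.

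**Figure D1:**
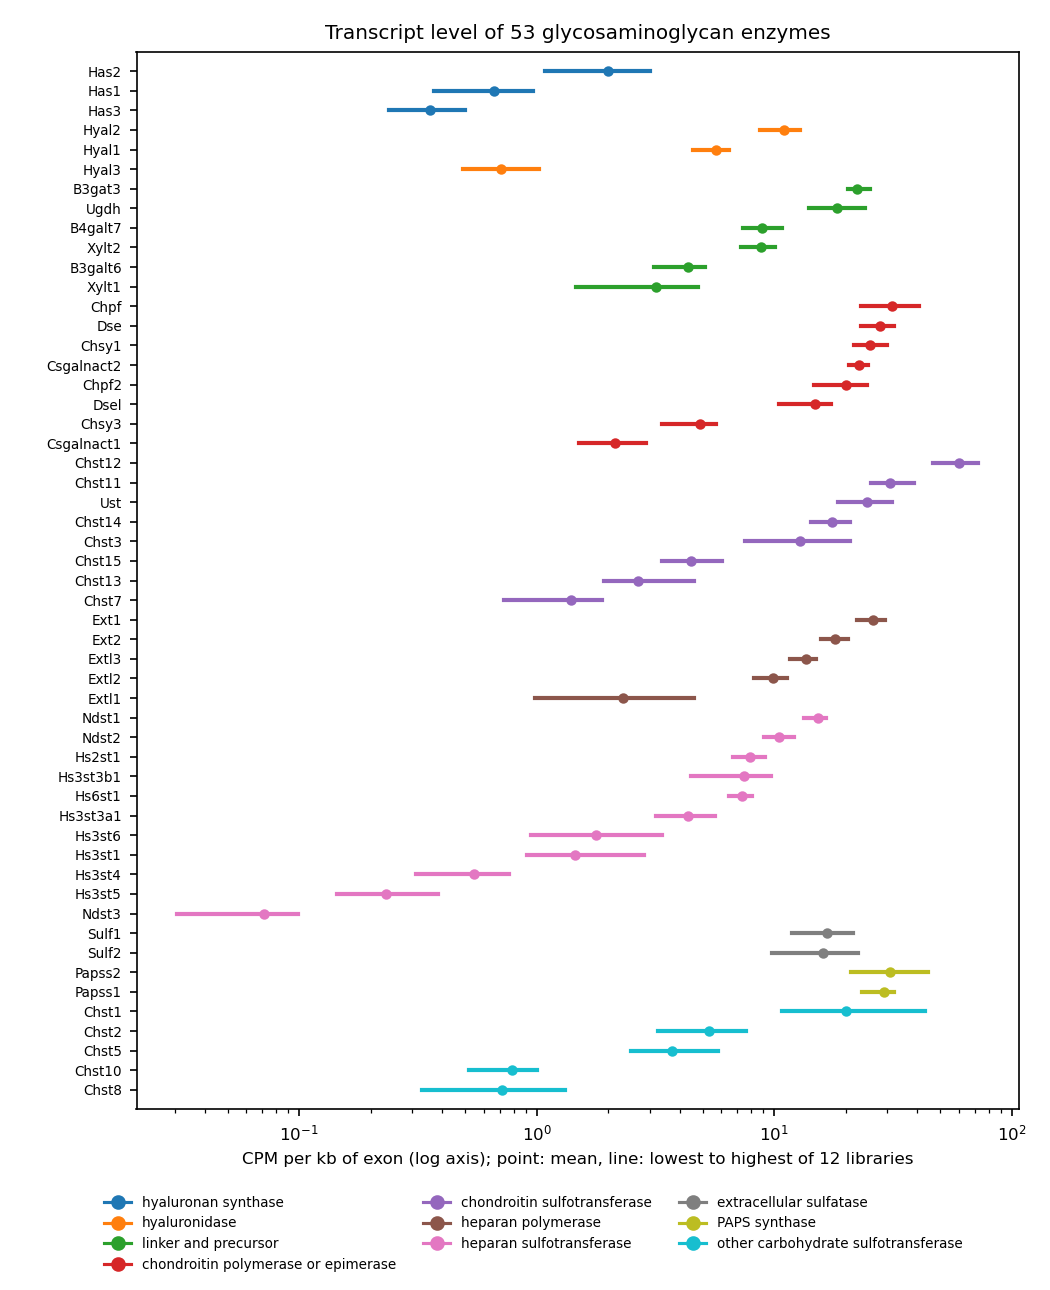
Mean level of each of the 53 tested genes in CPM per kilobase of exon (log axis, points), with lines from the lowest to the highest of the 12 libraries, coloured by the step each enzyme performs. Chst12 had the highest mean, 59.8 CPM per kb, and Ndst3 the lowest, 0.071 CPM per kb.

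Enzymes of the first steps were present throughout. Ugdh, which makes the glucuronic acid donor shared by all these chains except keratan sulfate, had 120, 122 and 133 CPM in ERalphaKO E2, 114, 133, 115 and 120 CPM in ERalphaKO placebo, 94.2, 116 and 135 CPM in WT E2, and 123 and 163 CPM in WT placebo. B3gat3, which adds the glucuronic acid that completes the linker, lay between 53.2 and 65.5 CPM in all libraries, a coefficient of variation of 6.41%. The xylosyltransferases, which start the linker, differed from each other: Xylt2 averaged 8.84 CPM per kb with a coefficient of variation of 8.96%, and Xylt1 averaged 3.18 CPM per kb with 32.6%. The galactosyltransferases B4galt7 and B3galt6 averaged 8.89 and 4.33 CPM per kb.

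Chondroitin and dermatan enzymes held the highest levels per unit of length. Chst12 (59.8 CPM per kb) and Chst11 (30.9 CPM per kb) both sulfate chondroitin at position 4 of N-acetylgalactosamine. Chst11 had 153, 162 and 172 CPM in ERalphaKO E2, 185, 184, 141 and 164 CPM in ERalphaKO placebo, 171, 154 and 214 CPM in WT E2, and 165 and 184 CPM in WT placebo. Chst12 had 111, 167 and 130 CPM in ERalphaKO E2, 135, 130, 128 and 142 CPM in ERalphaKO placebo, 110, 157 and 163 CPM in WT E2, and 150 and 171 CPM in WT placebo. The 4 groups overlapped for Chst11, while all 4 ERalphaKO placebo libraries lay below both WT placebo libraries for Chst12 (-0.26 ± 0.18 on the log2 scale, adjusted p = 0.711, edgeR). Chst13, the third chondroitin 4-sulfotransferase, averaged only 2.68 CPM per kb. Of the enzymes that act at position 6, Chst3 averaged 12.8 and Chst7 1.39 CPM per kb. The dermatan 4-sulfotransferase Chst14 averaged 17.5 CPM per kb, the uronyl 2-sulfotransferase Ust 24.5 and Chst15, which adds a second sulfate to 4-sulfated units, 4.46.

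Among the chain builders, Chpf averaged 31.3 CPM per kb, Chsy1 25.3 and Chsy3 4.90. With Chpf2, which lay between 82.2 and 138 CPM, these are the subunits of the chondroitin polymerase. Chain initiation was split unevenly, with Csgalnact2 at 22.7 and Csgalnact1 at 2.14 CPM per kb. Csgalnact2 was the least variable of the tested genes: 127, 117 and 121 CPM in ERalphaKO E2, 134, 123, 119 and 125 CPM in ERalphaKO placebo, 112, 135 and 133 CPM in WT E2, and 117 and 118 CPM in WT placebo, a coefficient of variation of 6.07%. Dse, the epimerase that turns chondroitin into dermatan sulfate, lay between 116 and 159 CPM, and its relative Dsel averaged 14.8 CPM per kb.

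The heparan sulfate polymerase was nearly as even. Ext1, one of its subunits, had 209, 217 and 226 CPM in ERalphaKO E2, 195, 222, 200 and 202 CPM in ERalphaKO placebo, 201, 221 and 181 CPM in WT E2, and 238 and 214 CPM in WT placebo. Its variation was 7.34% and that of Ext2, the other subunit, 7.59%. Extl3, which starts the chain, averaged 13.6 CPM per kb and Extl2 9.88. Extl1 averaged 2.31 CPM per kb and was among the most variable, at 47.8%.

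For heparan modification, Ndst1 (15.3 CPM per kb) and Ndst2 (10.5 CPM per kb), which replace acetyl by sulfate on glucosamine, stood above Ndst3. Ndst1 lay between 111 and 138 CPM. Hs2st1, the only 2-sulfotransferase of the family, averaged 7.95 CPM per kb, and Hs6st1 7.36. The 3-sulfotransferases, which complete rare motifs such as the antithrombin site of heparin, were led by Hs3st3b1 at 7.48 and Hs3st3a1 at 4.35 CPM per kb. The sulfotransferase domains of these paralogs are known to be closely alike, and whether reads were shared between them was not tested. Hs3st6, Hs3st1, Hs3st4 and Hs3st5 averaged 1.78, 1.45, 0.543 and 0.233 CPM per kb.

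Sulf1 and Sulf2, secreted enzymes that remove 6-sulfates from finished heparan sulfate, averaged 16.7 and 16.1 CPM per kb. Sulf1 had 196, 219 and 243 CPM in ERalphaKO E2, 171, 217, 144 and 225 CPM in ERalphaKO placebo, 167, 183 and 135 CPM in WT E2, and 172 and 189 CPM in WT placebo. Sulf2 had 57.4, 95.5 and 86.5 CPM in ERalphaKO E2, 94.6, 93.3, 67.0 and 99.1 CPM in ERalphaKO placebo, 103, 116 and 79.2 CPM in WT E2, and 132 and 110 CPM in WT placebo. All 3 ERalphaKO E2 libraries lay above all 3 WT E2 libraries for Sulf1, and all 4 ERalphaKO placebo libraries lay below both WT placebo libraries for Sulf2. Neither difference passed the test (Sulf1 log2 fold change 0.44 ± 0.17 SE, adjusted p = 0.346, and Sulf2 -0.45 ± 0.22, adjusted p = 0.591, edgeR).

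The sulfate donor PAPS is made by Papss1 and Papss2, and loss of Papss2 is a known cause of skeletal dysplasia in mice. They averaged 29.0 and 30.9 CPM per kb. Papss1 lay between 71.7 and 98 CPM. Papss2 had 93.4, 111 and 118 CPM in ERalphaKO E2, 121, 125, 78.0 and 111 CPM in ERalphaKO placebo, 101, 108 and 136 CPM in WT E2, and 111 and 165 CPM in WT placebo. Its lowest library was ERalphaKO placebo replicate 3, the one with most granulocyte markers.

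The hyaluronan enzymes stood lower. Has2, the main synthase of cartilage, averaged 1.99 CPM per kb, Has1 0.661 and Has3 0.357. Has2 had 5.41, 6.69 and 8.09 CPM in ERalphaKO E2, 10.6, 9.16, 4.62 and 9.50 CPM in ERalphaKO placebo, 7.33, 6.17 and 11.1 CPM in WT E2, and 9.85 and 12.8 CPM in WT placebo. Both WT placebo libraries were high, but the groups overlapped except that ERalphaKO E2 lay below WT placebo. Of the hyaluronidases, the membrane-anchored Hyal2 averaged 11 CPM per kb, the lysosomal Hyal1 5.71 and Hyal3 0.710. Hyal2 lay between 28.9 and 42.1 CPM and Hyal1 between 17.1 and 24.4 CPM.

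In WT fibrocartilage, E2 raised 1 of the 53 genes and lowered none by edgeR's quasi-likelihood test with Benjamini-Hochberg adjustment over 14832 genes. That gene was Chst1, which sulfates galactose at position 6 in keratan sulfate, the chain carried by small leucine-rich proteoglycans such as fibromodulin. In comparison, 0.458% of all genes were called for E2 in WT, 55 higher and 13 lower. Chst1 had 33.5, 60.1 and 47.3 CPM in ERalphaKO E2, 50.9, 43.6, 36.7 and 34.2 CPM in ERalphaKO placebo, 115, 72.1 and 86.2 CPM in WT E2, and 28.9 and 36.0 CPM in WT placebo. The 3 WT E2 libraries lay above the other 9, which overlapped among themselves. WT E2 averaged 91.1 ± 22.0 CPM (SD, n = 3) and WT placebo 32.4 ± 5.05 CPM (SD, n = 2). Chst1 rose 2.81-fold with E2 in WT, or by 1.49 ± 0.27 on the log2 scale (SE, adjusted p = 0.0495).

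The size of this change was steadier than its call. Without each library in turn it stayed between 1.29 and 1.66, but the adjusted p ran from 0.0302 to 0.461 and passed in 2 of the 12 fits. The call also ended in the fit to the 2 WT groups alone (1.48, adjusted p = 0.182), with the muscle covariate (1.5, adjusted p = 0.0719) and with the replicate number as a block (1.55, adjusted p = 0.185). DESeq2 gave 1.49 with adjusted p = 7.39e-06 and called 1.56% of all genes. The authors' deposited table gave 1.41 ± 0.22 with adjusted p = 5.9e-08. Most endothelial and macrophage markers also had positive values for E2 in WT, though none was called and their sums overlapped between the groups. The endothelial sum was 391, 249 and 451 CPM in WT E2, against 281 and 263 CPM in WT placebo, with 7 of 7 markers positive. The macrophage sum was 1450, 994 and 1410 CPM in WT E2, against 1120 and 834 CPM in WT placebo, with 8 of 9 positive. The osteoblast and osteocyte sum was 34800, 36300 and 39400 CPM in WT E2, below 46000 and 47100 CPM in WT placebo. Col1a1, also one of the tissue's defining markers, made up most of this sum. It had 28100, 31200 and 30700 CPM in WT E2 and 41700 and 42600 CPM in WT placebo. Of the 7 markers in the list, 4 were positive for E2 in WT, with a median of 0.02, and none was called. Each covariate was the mean log2 CPM of a marker list, not its sum. With the endothelial, macrophage or osteoblast level as a covariate the Chst1 estimate was 1.43 (adjusted p = 0.224), 1.64 (adjusted p = 0.15) or 1.33 (adjusted p = 0.176).

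Because Chst1 was the gene called, the 250 bases upstream of its RefSeq start are shown (GRCm38.p6, chr2:92600867-92601116, plus strand, GC content 51.6%), the stretch in which an estrogen response element close to the gene would lie:
Chst1: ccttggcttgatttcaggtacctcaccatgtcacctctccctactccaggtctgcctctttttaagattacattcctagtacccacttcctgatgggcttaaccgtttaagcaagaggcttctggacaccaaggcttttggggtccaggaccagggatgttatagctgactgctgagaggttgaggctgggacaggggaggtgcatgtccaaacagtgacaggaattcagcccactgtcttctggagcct
Neither GGTCA nor TGACC, the arms of the estrogen response element, occurs in it on either strand, so no base is in capitals. Windows from 250 bases before to 50 after the start were found for 49 of the 62 genes, and 39.7% of these 58 windows held an arm, against 40.5% of 32851 windows of all genes. The full element, GGTCA and TGACC 3 bases apart, was in 0 of the windows of these genes and in 0.07% of all windows. These letters are a description of the windows and say nothing of elements elsewhere or of receptor binding.

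**Figure D2:**
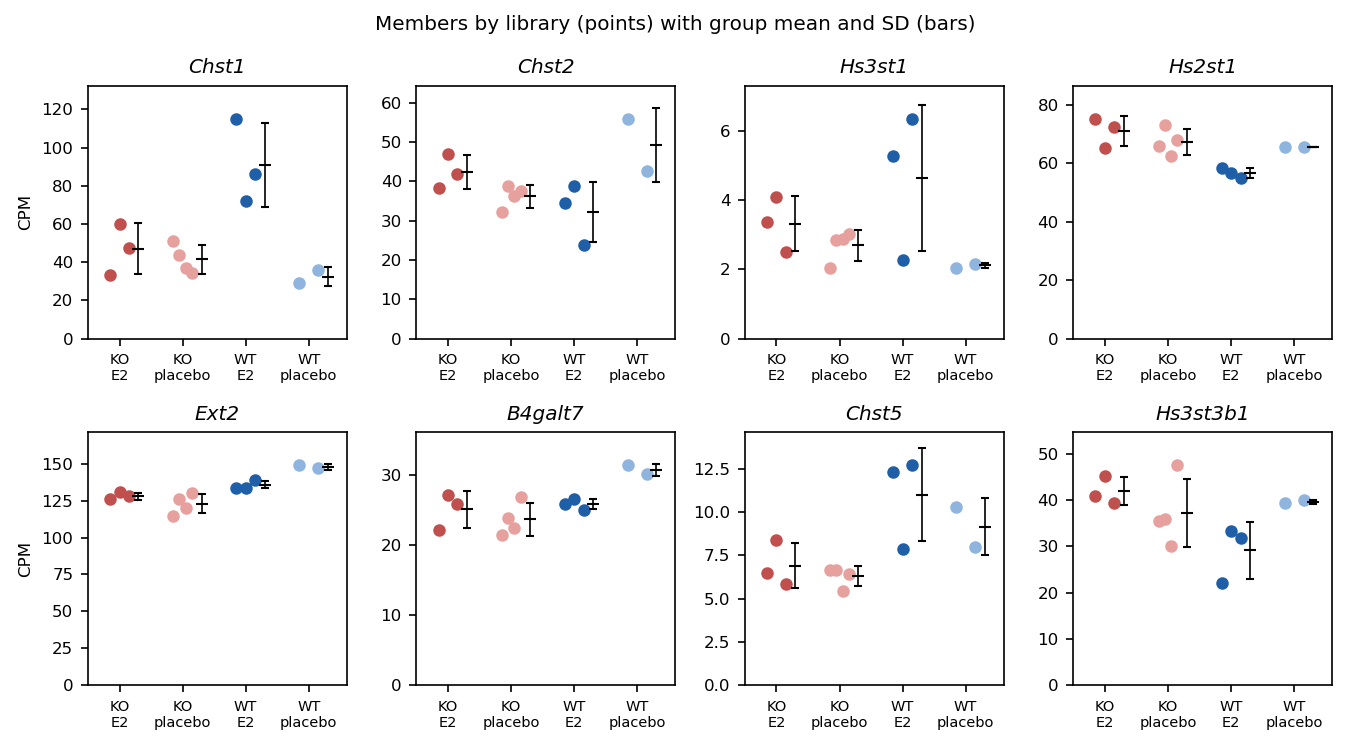
CPM per library (points) for 8 of the named genes, with the group mean and SD beside them, in the order ERalphaKO (KO) E2, KO placebo, WT E2 and WT placebo. The 3 WT E2 libraries of Chst1 lie between 72.1 and 115 CPM, above all other libraries, and those of Hs2st1 lie between 55.0 and 58.4 CPM, below all others.

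The other genes leaned slightly down with E2 in WT. Of the 53, 40 had a negative log2 fold change (75.5%), against 50.9% of all genes, and their median was -0.13, against -0.004 over all genes. All 6 linker and precursor genes (median -0.14), 6 of 8 chondroitin polymerase and epimerase genes (median -0.15) and 9 of 11 heparan sulfotransferases (median -0.13) were negative, none of them called. With marker levels as covariates the median was -0.06 (endothelial), -0.02 (macrophage), -0.12 (muscle), -0.14 (granulocyte) and -0.14 (osteoblast). The endothelial, macrophage and osteoblast covariates were chosen after seeing the data. At an unadjusted p under 0.05 there were 7 genes (13.2%), 2 higher and 5 lower, beside 8.14% of all genes.

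Chst2, which sulfates N-acetylglucosamine at position 6, had 38.3, 46.9 and 41.9 CPM in ERalphaKO E2, 32.3, 38.9, 36.2 and 37.5 CPM in ERalphaKO placebo, 34.4, 38.8 and 23.9 CPM in WT E2, and 55.9 and 42.7 CPM in WT placebo. WT E2 lay below WT placebo in every library, but the E2 change of -0.61 ± 0.18 did not pass (adjusted p = 0.32, edgeR). Hs3st1, the 3-sulfotransferase known for making the antithrombin-binding site, had 3.37, 4.08 and 2.51 CPM in ERalphaKO E2, 2.03, 2.84, 2.87 and 3.02 CPM in ERalphaKO placebo, 5.28, 2.26 and 6.34 CPM in WT E2, and 2.05 and 2.16 CPM in WT placebo. Its E2 value in WT was 1.13 ± 0.40 (adjusted p = 0.459, edgeR). Within WT E2 it was high in replicates 1 and 3, which also had the higher endothelial and macrophage sums. With the endothelial, macrophage or osteoblast covariate the value was 0.37, 0.48 or 0.65, and with the muscle or granulocyte covariate 1.06 or 1.16, none of them called. The part of any cell type in this value was not tested.

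Hs2st1, which sulfates uronic acid in heparan sulfate, had 75.1, 65.3 and 72.4 CPM in ERalphaKO E2, 65.9, 72.9, 62.4 and 67.8 CPM in ERalphaKO placebo, 58.4, 56.7 and 55.0 CPM in WT E2, and 65.6 and 65.5 CPM in WT placebo. All 3 WT E2 libraries lay below the other 9. The E2 value in WT was -0.21 ± 0.08 (adjusted p = 0.516). Chst10, which makes the HNK-1 sulfated epitope, had 9.32, 10.6 and 12 CPM in ERalphaKO E2, 10.9, 11.1, 7.33 and 10.3 CPM in ERalphaKO placebo, 8.14, 7.16 and 6.19 CPM in WT E2, and 8.62 and 11.5 CPM in WT placebo. WT E2 lay below WT placebo, and the value was -0.49 ± 0.21 (adjusted p = 0.586, edgeR).

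In ERalphaKO fibrocartilage no gene of the pathway was called for E2, nor was any of the 14832 genes tested (0%). DESeq2 called 0% as well. None of the 53 had an unadjusted p under 0.05, a threshold that 5.7% of all genes passed. The median was 0.06, against 0.000 over all genes, and 17 of 53 were negative (32.1%, against 50% of all genes). Muscle markers were lower in ERalphaKO E2 (9.07 to 50.2 CPM summed) than in 3 of the 4 ERalphaKO placebo libraries. With the muscle or the granulocyte covariate again 0 genes were called.

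The smallest p in ERalphaKO belonged to Hs3st5, a 3-sulfotransferase at a low level, with 0.962, 0.628 and 0.666 CPM in ERalphaKO E2, 0.775, 1.26, 1.67 and 1.21 CPM in ERalphaKO placebo, 1.00, 0.660 and 1.12 CPM in WT E2, and 0.880 and 1.32 CPM in WT placebo. Its E2 value was -0.70 ± 0.34 (adjusted p = 0.885, edgeR) and the groups overlapped. Extl1, a relative of the heparan polymerase subunits, had 4.27, 8.05 and 5.48 CPM in ERalphaKO E2, 10.1, 8.85, 9.85 and 9.06 CPM in ERalphaKO placebo, 11.7, 8.62 and 19.9 CPM in WT E2, and 5.86 and 18.6 CPM in WT placebo. All 3 ERalphaKO E2 libraries were below the 4 ERalphaKO placebo libraries, at -0.69 ± 0.39 (adjusted p = 0.924). Xylt1 had 20.6, 20.9 and 28.8 CPM in ERalphaKO E2, 45.9, 41.1, 14.2 and 37.2 CPM in ERalphaKO placebo, 26.4, 31.2 and 27.2 CPM in WT E2, and 29.4 and 45.3 CPM in WT placebo. ERalphaKO placebo replicate 3 was the lowest of all, and the E2 value in ERalphaKO was -0.56 ± 0.33 (adjusted p = 0.938).

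Xylt2 and Chst14 came next in that comparison, at 0.15 ± 0.08 (adjusted p = 0.916) and 0.17 ± 0.11 (adjusted p = 0.95), both with overlapping groups. For Chst1 the E2 value in ERalphaKO was 0.18 ± 0.22 (adjusted p = 0.997, edgeR). ERalphaKO E2 averaged 47.0 ± 13.3 CPM (SD, n = 3) and ERalphaKO placebo 41.4 ± 7.51 CPM (SD, n = 4). Without ERalphaKO E2 replicate 2, the smallest library, the value turned to -0.03.

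**Figure D3:**
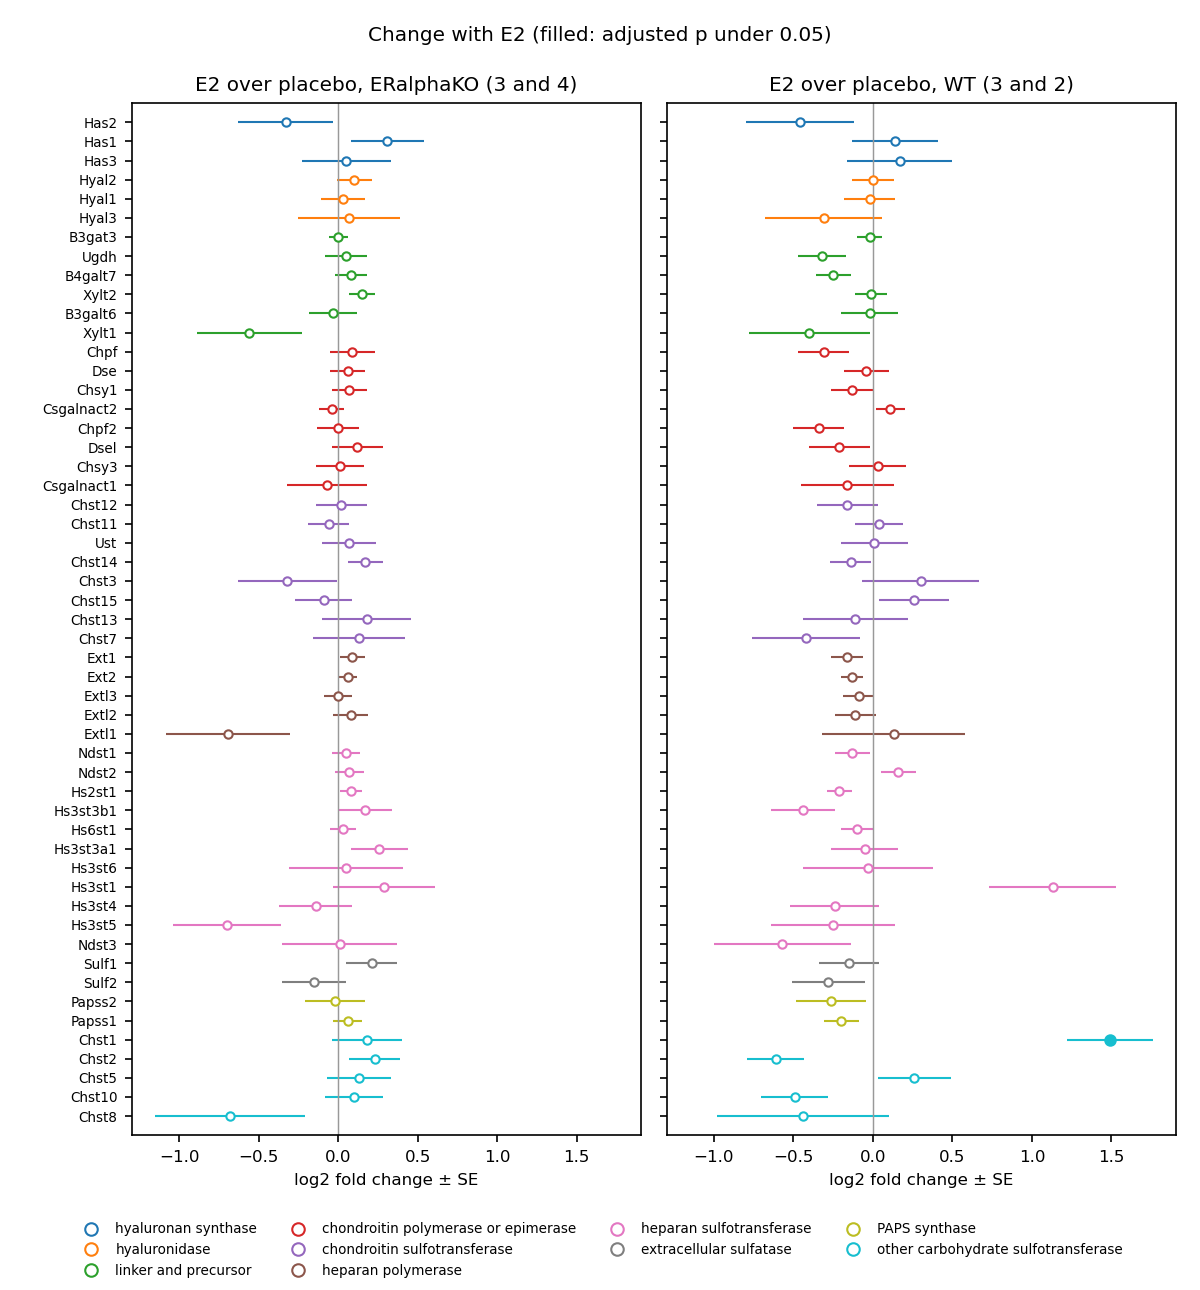
Log2 fold change with E2 over placebo ± SE for each of the 53 tested genes in ERalphaKO (left, 3 and 4 libraries) and in WT (right, 3 and 2 libraries), coloured by enzyme step. The one filled point, adjusted p under 0.05, is Chst1 in WT at 1.49.

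Whether the E2 effect itself differed between genotypes was tested as the effect in ERalphaKO minus that in WT. No gene of the pathway passed, beside 0.0539% of all genes. Chst1 had the smallest p, with a difference of -1.31 ± 0.35 (adjusted p = 0.389, edgeR). DESeq2 gave -1.30 with adjusted p = 0.0344 and called 0.604% of all genes. The E2 values of Chst1 in ERalphaKO and WT were thus not shown to differ by edgeR, the test used throughout, but passed in DESeq2. At an unadjusted p under 0.05 there were 5 genes (9.43%), 4 higher and 1 lower, beside 6.78% of all genes. After Chst1 came Chst2 at 0.83 ± 0.24 (adjusted p = 0.484), Hs2st1 at 0.29 ± 0.10 (adjusted p = 0.624), Hs3st3b1 at 0.61 ± 0.26 (adjusted p = 0.699) and B4galt7 at 0.33 ± 0.15 (adjusted p = 0.725). The median over the 53 genes was 0.14, against -0.016 over all genes.

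The genotypes were also compared under each treatment. These comparisons use the libraries of the E2 comparisons again, so values of the same gene are not independent between them. Under E2 no gene of the pathway was called, beside 1.1% of all genes. The 53 genes had a median of -0.01, against -0.003 over all genes, and 29 were negative (54.7%, against 50.8% of all genes). At an unadjusted p under 0.05 there were 9 genes (17%), 6 higher and 3 lower in ERalphaKO, beside 11.5% of all genes. Muscle markers were lower in the ERalphaKO E2 libraries (9.07 to 50.2 CPM summed) than in the WT E2 libraries (216 to 1090 CPM). All 12 granulocyte markers had positive values, though their sums overlapped between the groups. These sums were 9460, 1630 and 3340 CPM in ERalphaKO E2, against 2420, 1850 and 3780 CPM in WT E2. With the muscle or the granulocyte level as a covariate 0 genes were called.

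Hs2st1 came closest, at 0.33 ± 0.07, 1.25-fold higher in ERalphaKO (adjusted p = 0.0666, edgeR). ERalphaKO E2 averaged 70.9 ± 5.06 CPM and WT E2 56.7 ± 1.71 CPM (SD, n = 3 each), without overlap. The adjusted p was 0.046 without ERalphaKO placebo replicate 3 and 0.0479 without ERalphaKO E2 replicate 2, and ran up to 0.272 without another library. Chst1 was 1.94-fold lower in ERalphaKO under E2, at -0.96 ± 0.24 (adjusted p = 0.101, edgeR), again without overlap. DESeq2 gave adjusted p = 0.00411 to both genes and called 3.06% of all genes. The authors' deposited table gave Hs2st1 0.33 ± 0.10 (adjusted p = 0.0339), Chst1 -0.91 ± 0.24 (adjusted p = 0.00511) and Extl1 -1.08 ± 0.34 (adjusted p = 0.041). Extl1 was -1.19 ± 0.42 in the edgeR fit (adjusted p = 0.281).

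Chst5, which sulfates N-acetylglucosamine at position 6, had 6.5, 8.37 and 5.84 CPM in ERalphaKO E2, 6.68, 6.68, 5.43 and 6.40 CPM in ERalphaKO placebo, 12.3, 7.87 and 12.7 CPM in WT E2, and 10.3 and 8.00 CPM in WT placebo. Its genotype value under E2 was -0.67 ± 0.21 (adjusted p = 0.218) with 1 WT E2 library inside the ERalphaKO range. Chst10 was at 0.57 ± 0.19 (adjusted p = 0.254) without overlap. Hs3st3b1 had 40.9, 45.3 and 39.4 CPM in ERalphaKO E2, 35.4, 35.9, 30.0 and 47.5 CPM in ERalphaKO placebo, 22.1, 33.4 and 31.9 CPM in WT E2, and 39.3 and 40.0 CPM in WT placebo. WT E2 lay below the other groups except ERalphaKO placebo, and the genotype value under E2 was 0.52 ± 0.18 (adjusted p = 0.265, edgeR).

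Under placebo no gene of the pathway was called for genotype either, beside 0.0135% of all genes, which is 2 genes. Of the 53, 40 were lower in ERalphaKO by sign (75.5%, against 47.9% of all genes), with a median of -0.13, against 0.010 over all genes. All 6 linker and precursor genes (median -0.18), all 5 heparan polymerase genes (median -0.15) and 7 of 8 chondroitin polymerase and epimerase genes (median -0.21) were negative. At an unadjusted p under 0.05 there were 11 genes (20.8%), 2 higher and 9 lower, beside 8.93% of all genes. This comparison rests on 2 WT placebo libraries, which it shares with E2 in WT. Granulocyte markers had a median log2 fold change of 5.09 in it, though their sums overlapped between the groups. These sums were 1970, 2260, 19200 and 4410 CPM in ERalphaKO placebo, against 3360 and 2260 CPM in WT placebo. Without ERalphaKO placebo replicate 3 and ERalphaKO E2 replicate 1, the libraries with most granulocyte markers, the median of the 53 genes was -0.11.

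**Figure D4:**
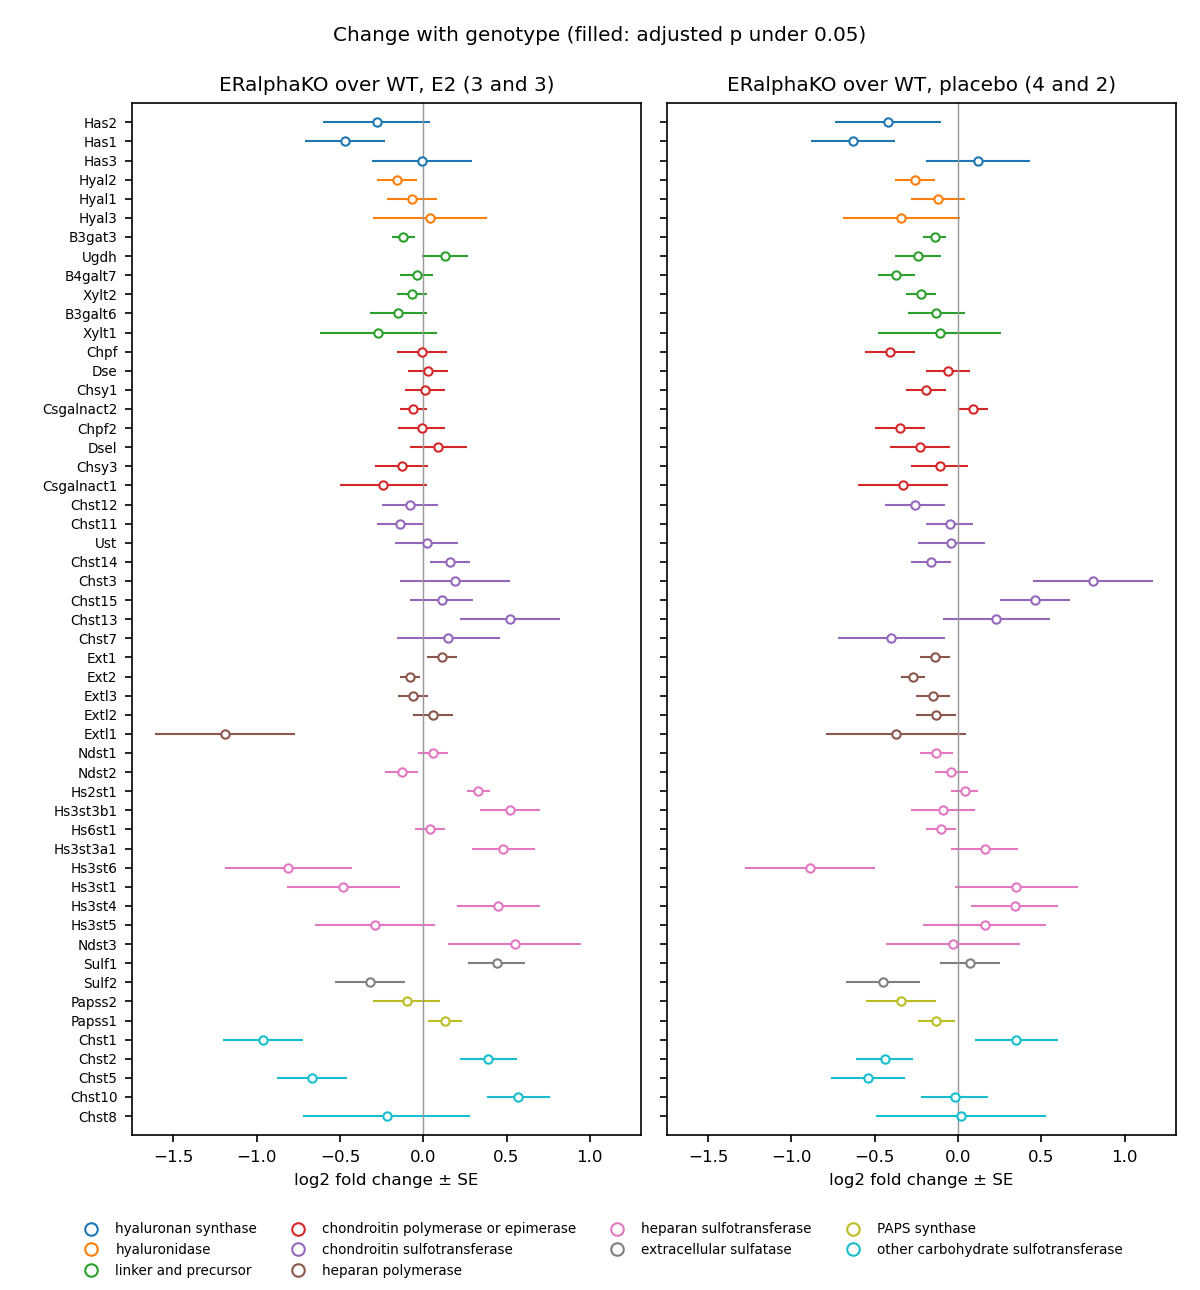
Log2 fold change in ERalphaKO over WT ± SE for each of the 53 tested genes under E2 (left, 3 and 3 libraries) and under placebo (right, 4 and 2 libraries), coloured by enzyme step. No point is filled, since no gene passed the adjusted threshold. Under placebo all linker and heparan polymerase genes lie left of 0.

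Ext2 had 126, 131 and 128 CPM in ERalphaKO E2, 115, 126, 120 and 130 CPM in ERalphaKO placebo, 134, 134 and 139 CPM in WT E2, and 149 and 147 CPM in WT placebo. Its 7 ERalphaKO libraries were all lower than its 5 WT libraries, but closely, at up to 131 CPM against 134 CPM and more. Under E2 the genotype value was only -0.08 ± 0.06 (adjusted p = 0.707, edgeR). The placebo value was -0.27 ± 0.07, 1.21-fold lower in ERalphaKO (adjusted p = 0.33, edgeR). DESeq2 gave -0.26 with adjusted p = 0.00993 and called 0.903% of all genes. B4galt7, which adds the first galactose of the linker, had 22.1, 27.2 and 25.9 CPM in ERalphaKO E2, 21.5, 23.9, 22.5 and 26.9 CPM in ERalphaKO placebo, 25.9, 26.6 and 25.0 CPM in WT E2, and 31.4 and 30.2 CPM in WT placebo. WT placebo lay above all other libraries, and the placebo value was -0.37 ± 0.11 (adjusted p = 0.39).

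Chpf had 110, 121 and 123 CPM in ERalphaKO E2, 96.9, 122, 106 and 118 CPM in ERalphaKO placebo, 131, 136 and 89.8 CPM in WT E2, and 157 and 138 CPM in WT placebo, with a placebo value of -0.41 ± 0.15 (adjusted p = 0.481, edgeR). Both WT placebo libraries lay above every other library. Chst2 was at -0.44 ± 0.17 (adjusted p = 0.498). Has1 had 2.23, 2.61 and 3.48 CPM in ERalphaKO E2, 2.21, 1.67, 2.64 and 2.46 CPM in ERalphaKO placebo, 3.11, 4.10 and 4.34 CPM in WT E2, and 3.23 and 3.74 CPM in WT placebo, with a placebo value of -0.63 ± 0.25 (adjusted p = 0.501). ERalphaKO placebo lay below both WT groups for Has1. Chst1 under placebo was at 0.35 ± 0.25 (adjusted p = 0.731) with overlapping groups.

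Several further genes varied widely, and were chosen for this after their values were seen. Chst3, the main chondroitin 6-sulfotransferase, had 72.1, 76.9 and 99.4 CPM in ERalphaKO E2, 135, 114, 51.0 and 112 CPM in ERalphaKO placebo, 81.4, 87.8 and 49.4 CPM in WT E2, and 48.9 and 69.1 CPM in WT placebo. ERalphaKO placebo was high except for replicate 3, and the genotype value under placebo was 0.81 ± 0.36 (adjusted p = 0.558, edgeR). Hs3st6 had 2.03, 1.72, 1.40 and 1.97 CPM in ERalphaKO placebo, against 4.52 and 2.13 CPM in WT placebo. All ERalphaKO placebo libraries lay below WT placebo (-0.89 ± 0.39, adjusted p = 0.547), a value that ran from -1.35 to -0.26 as single libraries were left out. Chst8, which sulfates the glycans of pituitary hormones, averaged 0.717 CPM per kb with a coefficient of variation of 43.1%. Chst15 had 40.7, 25.8 and 26.7 CPM in ERalphaKO E2, 36.7, 36.1, 30.8 and 29.5 CPM in ERalphaKO placebo, 27.8, 23.5 and 35.5 CPM in WT E2, and 25.5 and 22.9 CPM in WT placebo. ERalphaKO placebo lay above WT placebo (0.46 ± 0.21, adjusted p = 0.559, edgeR).

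Levels were also added up by enzyme step. The chondroitin sulfotransferases summed to 529, 626 and 571 CPM in ERalphaKO E2, 650, 611, 479 and 627 CPM in ERalphaKO placebo, 528, 588 and 626 CPM in WT E2, and 548 and 609 CPM in WT placebo. The heparan sulfotransferases summed to 367, 332 and 376 CPM in ERalphaKO E2, 338, 349, 310 and 361 CPM in ERalphaKO placebo, 320, 333 and 328 CPM in WT E2, and 355 and 354 CPM in WT placebo. ERalphaKO placebo replicate 3 had the lowest sum in both, and WT E2 overlapped every other group except WT placebo in the heparan sum. The sulfotransferases of other glycans, Chst1 among them, summed to 92.6, 128 and 110 CPM in ERalphaKO E2, 103, 105, 93.6 and 94.0 CPM in ERalphaKO placebo, 174, 131 and 131 CPM in WT E2, and 108 and 104 CPM in WT placebo. Here the 3 WT E2 libraries were the highest, with Chst1 alone giving 115, 72.1 and 86.2 CPM of their sums. Of the 5 tested genes of this step, 3 were negative for E2 in WT, and the median was -0.44.

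Few genes around the pathway were called. Of 18 precursor and sulfate supply genes, all tested, edgeR called 0 in each comparison, with at most 4 at an unadjusted p under 0.05. Those 4 of 18 came in the genotype comparison under placebo and again in the difference of E2 effects, beside 8.93% and 6.78% of all genes. DESeq2 called 1 of these genes in the genotype comparison under placebo and 1 in that of E2 in WT. The 9 further chain enzymes, 15 tested breakdown enzymes and 12 tested hyaluronan-binding genes also had 0 calls by edgeR. At most 1, 2 and 3 of them had an unadjusted p under 0.05 in a comparison. The 1 of 9 came in every comparison but E2 in ERalphaKO, beside 6.78 to 11.5% of all genes. The 2 of 15 came in genotype under placebo, beside 8.93%, and the 3 of 12 in genotype under E2, beside 11.5%. DESeq2 called none of the first 2 lists and Stab1 of the third, in the comparisons of E2 in WT and of genotype under E2. Stab1, a clearance receptor for hyaluronan on sinusoidal endothelium and macrophages, had 74.5, 81.6 and 73.1 CPM in ERalphaKO E2, against 145, 91.3 and 165 CPM in WT E2. That is -0.80 ± 0.18 (adjusted p = 0.0659 by edgeR and 0.00124 by DESeq2). Within WT E2 it was higher in replicates 1 and 3, as were the endothelial and macrophage sums, whose part in this was not tested.

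Of 23 tested proteoglycan core proteins, edgeR called 1, for genotype under E2, beside 1.1% of all genes. At an unadjusted p under 0.05 there were 8 in that comparison, beside 11.5% of all genes. DESeq2 called 3 for genotype under E2 (Tgfbr3, Vcan and Spock2), beside 3.06% of all genes, and 3 for E2 in WT (Tgfbr3, Vcan and Gpc1), beside 1.56%. Tgfbr3, the core protein betaglycan that presents TGF-beta to its receptors, had 52.7, 50.6 and 58.2 CPM in ERalphaKO E2, against 71.5, 69.9 and 83.9 CPM in WT E2. It was 1.39-fold lower in ERalphaKO under E2 without overlap (-0.48 ± 0.09, adjusted p = 0.0298, edgeR). Leaving out each library in turn kept it between -0.53 and -0.39, and it passed in 4 of 12 fits, with adjusted p from 0.0259 to 0.132. Vcan, the large chondroitin sulfate proteoglycan versican, had 151, 124 and 176 CPM in ERalphaKO E2, against 75.9, 99.4 and 51.7 CPM in WT E2. The groups did not overlap, but 1.00 ± 0.25 did not pass (adjusted p = 0.115 by edgeR, 0.00393 by DESeq2). The E2 value of Vcan in WT was -1.03 ± 0.28 (adjusted p = 0.226 by edgeR, 0.0177 by DESeq2).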

How the data were processed

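Per the labels' protocols, RNA with integrity numbers of at least 9 was enriched for polyadenylated transcripts before Illumina sequencing. Per the submitters' processing notes, bcl2fastq 2.17, TopHat and genome build mm9 were used. Which tool and annotation gave the counts, and whether strand was used, is not given in the sources used here. Raw counts per gene symbol were deposited by the authors, with comparison tables of log2 fold changes and p-values.

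The members, roles and gene lists were chosen with earlier results of these data known. Genes passing edgeR's group-wise filter (minimum count 10) were fitted with edgeR 4.0.16 in R 4.3.3: TMM scaling, 1 mean per group over 12 libraries, quasi-likelihood tests with 8 residual degrees of freedom, and Benjamini-Hochberg adjustment over 14832 genes within each comparison at a threshold of 0.05. The biological coefficient of variation was 25.9%. Standard errors were obtained from the F statistic, whose square root is the log2 fold change in units of its error. Alternatives were DESeq2 1.42.0, other scaling, no filter, fits to 2 groups, the replicate block, marker covariates and leaving out libraries.

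Text names genes past the threshold, the 5 of smallest p per comparison and the 2 most counted per enzyme step. Values of 1 supply gene are not reported here. Levels per kilobase use exon lengths of GENCODE M21, in which all 62 symbols were found. Of the genes, 11 overlap an exon on the opposite strand (Chpf2 shares one with Smarcd3) and 4 on their own strand, so their counts may be shared. Promoter windows are from RefSeq.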

Additional observations from a re-analysis of the deposited data

Results flagged for a closer look

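Outlying libraries were sought within the ERalphaKO placebo group, the one group with 4 libraries, for 31 of the named genes. By Dixon's criterion (a gap over 0.829 of the range) 2 stood out. The ratios were taken on log2 CPM and so differ from those of the CPM values printed here. Chance gives about 1 in 20 such groups. Hs3st1 was lowest in ERalphaKO placebo replicate 1 at 2.03 CPM, with the other replicates between 2.84 and 3.02 CPM (ratio 0.849). Sulf2 was lowest in ERalphaKO placebo replicate 3 at 67.0 CPM, with the others between 93.3 and 99.1 CPM (ratio 0.843). Replicate 3 also held the most granulocyte markers, and their part in this value was not tested.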

How the results depend on the processing

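The count of 1 gene raised by E2 in WT, Chst1, became 0 in the fit to 2 groups (Chst1 1.48), with the replicate block (1.55, adjusted p = 0.185), and with the muscle (1.5), endothelial (1.43), macrophage (1.64) or osteoblast (1.33) covariate, beside 1.49 as reported. Leaving out each library gave 0 to 1. The last 3 covariates were chosen after seeing the data. The median for E2 in WT was -0.06 with the endothelial and -0.02 with the macrophage covariate. DESeq2 called 1 lower gene for genotype under placebo (Ext2), 1 higher (Hs2st1) and 1 lower (Chst1) for genotype under E2, and 1 lower (Chst1) for the difference of E2 effects, all 0 in edgeR. Leaving out each library gave 0 to 1 higher genes for genotype under E2 and medians of 0.11 to 0.19 for the difference. The E2 value of Chst1 in ERalphaKO ran from -0.03 (without ERalphaKO E2 replicate 2) to 0.38 as each library was left out. The cause was not tested for any of these. Same-numbered libraries were not treated as pairs, since the labels give them no shared source. Of 15 such pairs, 9 correlated over 0.1 (-0.33 to 0.50), while pairs of different numbers ran from -0.50 to 0.52. The 2 WT placebo libraries deviate from their mean in mirror image, so these correlations cannot decide on pairing. The 6 pairs among replicates 2 were all positive, at 0.21 to 0.47. In the smallest library 3 counts equal 0.314 CPM, so genes near 1 CPM such as Ndst3 and Hs3st5 rest on few counts.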
